A study of Homo sapiens and Mus musculus with 33 samples.

Results

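The epithelial-mesenchymal transition is the programme by which sheet-forming epithelial cells loosen their junctions and take on a motile, matrix-producing state. It is described here through 10 genes: CDH1 and ESRP1, which mark the epithelial state, CDH2, VIM and FN1, which mark the mesenchymal state, and SNAI1, SNAI2, ZEB1, ZEB2 and TWIST1, the transcription factors that drive the change. The genes were chosen by name, and all 10 were found among the 35805 genes of the human RNA-seq table and among the 25965 genes of the mouse one. A peak was assigned to a gene if it lay in the deposited gene interval or within 2 kb of it, which gave 21 of 40266 peaks in HCT116 cells, 12 of 30338 H3K18cr peaks in colon epithelium and 16 of 27035 H3K4me3 peaks in colon epithelium.

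The study asked how crotonylation of histone H3 at lysine 18 (H3K18cr) relates to transcription in the gut and how inhibition of class I histone deacetylases (HDACs) affects it. HCT116, an established line of human colon carcinoma cells, was grown with 5 µM MS275, an inhibitor of class I HDACs, or with the same amount of its solvent DMSO for 18 h. RNA-seq was done on 4 libraries per treatment, and chromatin immunoprecipitation with sequencing (ChIP-seq) for H3K18cr and for H3K18ac, the acetylated form of the same residue, on 3 libraries per mark and treatment with 1 input library per treatment. Colon epithelium of C57BL/6 mice gave 3 RNA-seq libraries, 2 H3K18cr libraries with 2 inputs and 3 libraries of H3K4me3, a mark of promoters, with 1 input, and chromatin of 3 colons was pooled for ChIP. No genotype or age is given for these mice in the sources used here, HCT116 is a single line, and the sources used here do not say what a replicate number of the HCT116 ChIP-seq stands for, though the study used a paired test on these libraries, so that p-values there measure the spread between these libraries only.

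E-cadherin, encoded by CDH1, holds neighbouring epithelial cells together, and its loss is the classical sign of the transition. The SNAI, ZEB and TWIST factors bind E-box sequences at CDH1 and other epithelial genes, and SNAI and ZEB proteins repress them by recruiting corepressors, HDAC1 and HDAC2 among them. In colon carcinoma the transition is known for its link to invasion, and HDAC inhibitors have long been studied for their action on it.

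RNA-seq depth was 35608533 to 53415604 counts per library in HCT116 cells and 8166406 to 10707901 in colon. The HCT116 ChIP libraries held 2236551 to 5730094 reads in peaks, and their inputs 1374609 and 1550122. Markers of epithelium summed to 2733 to 3821 CPM (counts scaled by the total of the library) with DMSO and to 3430 to 4223 CPM with MS275, all 6 of them with a count, but KRT20 and VIL1, markers of mature colon cells, were low, at 0.885 ± 0.282 and 0.320 ± 0.640 CPM with DMSO (SD, n = 4). Mean CPM with DMSO and with MS275 was 1759 and 2200 for KRT8 and 1004 and 1240 for KRT18, which carried most of these sums. EPCAM (378 and 331) and CDX2 (23.1 and 17.2) had lower means with MS275. In colon, the 6 markers summed to 5131 to 6080 CPM and 4 goblet cell markers to 10848 to 17976 CPM. Of the other cell types, colon RNA held 5 of 5 markers of smooth muscle, summing to 42.5 to 58.9 CPM, 5 of the 5 leukocyte markers found, at 48.4 to 73.0 CPM, 4 of 4 endothelial markers, at 11.2 to 14.2 CPM, and 5 of 6 fibroblast markers, at 7.22 to 7.35 CPM, with Pdgfra at 0. In HCT116 cells with DMSO and with MS275, goblet cell markers summed to 1.11 to 6.47 and 0.501 to 5.33 CPM, with TFF3 and SPINK4 at 0 in both and MUC2 with MS275, endothelial markers to 0.358 to 1.43 and 0.365 to 1.43 CPM, and leukocyte markers to 0.921 to 1.14, with CD3E at 0, and 0.597 to 1.42 CPM.

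Promoters are shown for 4 genes, to set windows with and without a peak side by side, as 300 bases each in the direction of transcription, 250 before the start and 50 from it, from RefSeq on GRCh38.p14. The RefSeq table held 12 promoters of 5 of the 10 genes, and no entry was matched for CDH1, ESRP1, SNAI1, SNAI2 and TWIST1. Capitals mark the E-box CAGGTG or its reverse complement CACCTG, the sequence that SNAI and ZEB factors bind, and TGACGTCA, the cyclic AMP response element. FN1, VIM and ZEB1 are shown because their starts lay inside an HCT116 peak, and ZEB2 because its start did not. ZEB1 had 7 windows, of which 5 had their start in the peak and 2 outside it, and the window shown is the one with the most E-boxes.
FN1 promoter, chr2:215436019-215436318, minus strand: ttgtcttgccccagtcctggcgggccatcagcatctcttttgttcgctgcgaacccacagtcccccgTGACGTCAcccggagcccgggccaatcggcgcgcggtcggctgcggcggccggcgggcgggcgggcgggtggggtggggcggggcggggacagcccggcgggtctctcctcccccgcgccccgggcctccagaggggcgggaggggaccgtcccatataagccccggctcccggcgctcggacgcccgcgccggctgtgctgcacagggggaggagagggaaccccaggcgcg
VIM promoter, chr10:17227991-17228290, plus strand: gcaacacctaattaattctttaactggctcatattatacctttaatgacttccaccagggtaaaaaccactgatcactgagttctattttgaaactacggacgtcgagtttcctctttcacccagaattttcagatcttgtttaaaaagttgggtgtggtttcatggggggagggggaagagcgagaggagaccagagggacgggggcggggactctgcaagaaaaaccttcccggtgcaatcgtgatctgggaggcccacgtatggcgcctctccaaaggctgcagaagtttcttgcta
ZEB1 promoter, chr10:31318966-31319265, plus strand: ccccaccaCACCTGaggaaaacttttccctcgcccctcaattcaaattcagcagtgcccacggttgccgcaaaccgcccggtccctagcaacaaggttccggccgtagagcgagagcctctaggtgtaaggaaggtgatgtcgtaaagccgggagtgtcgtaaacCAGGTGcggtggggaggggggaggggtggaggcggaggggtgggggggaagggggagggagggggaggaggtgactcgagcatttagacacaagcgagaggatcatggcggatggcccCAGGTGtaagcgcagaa
ZEB2 promoter, chr2:144520070-144520369, minus strand: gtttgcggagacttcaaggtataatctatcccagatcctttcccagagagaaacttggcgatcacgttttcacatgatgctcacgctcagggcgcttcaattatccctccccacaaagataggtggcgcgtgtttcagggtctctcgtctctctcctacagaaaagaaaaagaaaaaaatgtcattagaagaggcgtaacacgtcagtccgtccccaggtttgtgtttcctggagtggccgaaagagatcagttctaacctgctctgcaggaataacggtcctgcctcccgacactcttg

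The ZEB1 window shown held 3 copies of the E-box, while 1 other ZEB1 window held 1 copy and the remaining 5 held none. The FN1 window held 1 cyclic AMP response element. No E-box was in the windows of FN1, VIM, ZEB2 and CDH2. Of the 35116 promoters of this length in the table, 20.6% held the E-box and 1.85% the response element, on either strand. CpG dinucleotides numbered 38 in the window of FN1, 14 in that of ZEB2 and 10 in that of VIM, 7 to 35 over the windows of ZEB1 (17 in the one shown), and 4 and 23 in the 2 windows of CDH2, where the median over all promoters was 14. These letters describe the windows, and no binding was measured.

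HCT116 cells and colon epithelium both carried an epithelial pattern of RNA, with CDH1 and ESRP1 far above the mesenchymal markers. SNAI1 and TWIST1 RNA had counts in every HCT116 library, while colon had at most 5 counts of Snai1 and none (0) of Twist1. Per kilobase of exon (CPM divided by the summed exon length of the gene), ESRP1, which encodes a splicing factor of epithelial cells, was the highest of the 10 genes in HCT116 cells with DMSO, at 34.9 CPM per kb, followed by CDH1 at 11.6 and SNAI1 at 5.79. TWIST1 stood at 1.18, FN1 at 0.610, VIM at 0.516 and ZEB1 at 0.207 CPM per kb. SNAI2 (0.0584) and ZEB2 (0.0123) lay near the limit of detection, and CDH2 had no count. Of neighbours in this order, ESRP1 and CDH1 did not overlap in any library, nor did SNAI1 and TWIST1. CDH1 (4.90 to 15.7 CPM per kb) and SNAI1 (3.79 to 6.83) overlapped, as did each pair of neighbours from TWIST1 down to ZEB2. The exon length joins all annotated exons of a gene, 17.2 kb for FN1, 5.18 kb for VIM and 2.00 kb for TWIST1, so this order depends on the annotation. Without division by length, FN1 (10.5 CPM) and VIM (2.67 CPM) had higher means than TWIST1 (2.36 CPM).

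In colon, the order was headed by Cdh1 at 216 CPM per kb, above Esrp1 at 54.3, with no overlap between the 3 libraries of each. Vim, an intermediate filament protein of mesenchymal cells, followed at 3.02, and Fn1 (0.231), Snai1 (0.227), Zeb1 (0.0735), Zeb2 (0.0442) and Cdh2 (0.0128) lay at least an order of magnitude below it. Snai2 and Twist1 had a count of 0 in all 3 libraries, and 3 counts over the summed depth of these would have been 0.105 CPM. SNAI1 was at the 62.6th percentile of genes with a count in HCT116 cells with DMSO and Snai1 at the 17.9th in colon, while VIM was at the 28.6th and Vim at the 41.7th. These ranks come from different species, cell sources and depths, and no test was made between them. Vim at 10.4, 15.3 and 17.3 CPM in the 3 mice stood beside the leukocyte, smooth muscle and endothelial markers given above, and their part in it was not tested. In tissue, fewer cells of a type and less RNA per cell cannot be told apart.

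**Figure D1:**
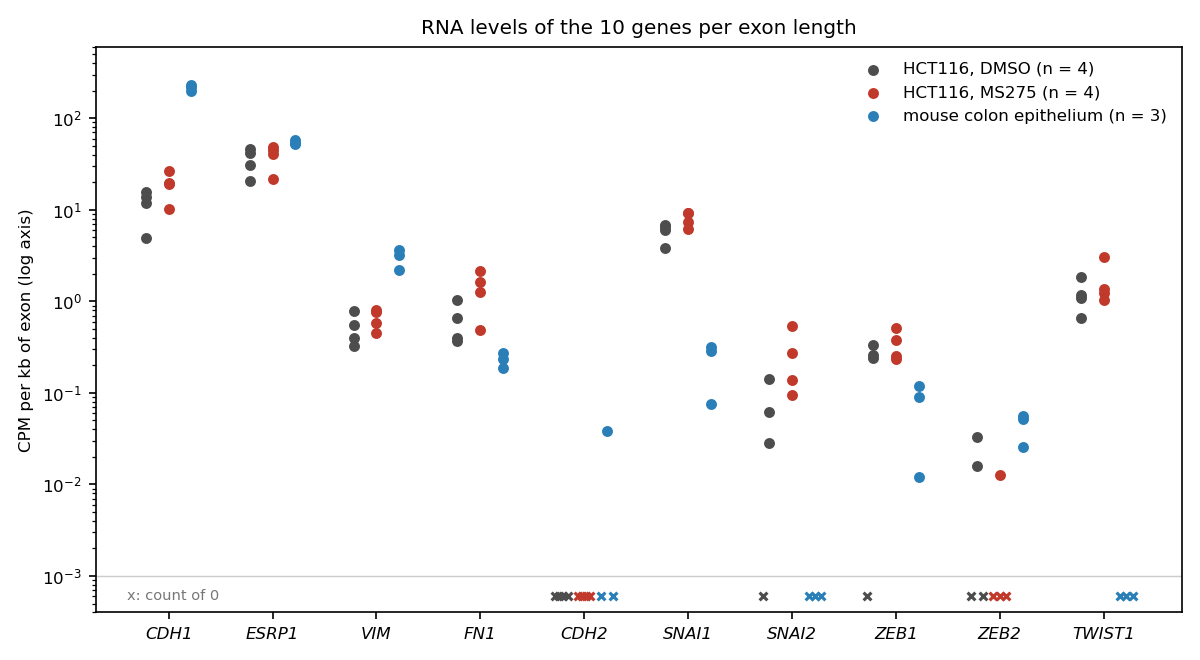
RNA of the 10 genes in CPM per kb of exon on a log axis, with a point for each library of HCT116 cells with DMSO (grey, n = 4), with MS275 (red, n = 4) and of mouse colon epithelium (blue, n = 3), and crosses below the line for libraries with a count of 0. CDH1 and ESRP1 are the genes with the highest mean in each group, and the SNAI1 points of colon lie below those of HCT116 cells.

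With MS275, CDH1 and FN1 RNA rose in the test that keeps libraries of the same number together, and none of the 8 genes tested fell in it. CDH1 CPM was 71.5, 84.7, 29.8 and 95.4 in DMSO libraries 1 to 4 and 116, 121, 62.0 and 162 in the MS275 libraries of the same numbers. Each MS275 library was above the DMSO library of its number, by 0.51 to 1.06 on the log2 scale, but the groups overlapped, since MS275 library 3 was lower than 3 of the DMSO libraries. Without pairing, edgeR gave a log2 change of 0.70 (SE 0.31) with an adjusted p of 0.725, and with libraries blocked by number 0.74 (SE 0.092) with an adjusted p of 0.000466, a 1.67-fold rise. The numbers were used as pairs because deviations of same-numbered libraries correlated across genes at 0.151 to 0.460. Libraries of different numbers reached 0.239 (DMSO 2 with MS275 4) and 0.219 (DMSO 4 with MS275 2), above the value for number 2, and whether a number marks a shared culture is not stated in the sources used here.

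FN1, which encodes the matrix protein fibronectin and belongs to the opposite state, moved the same way. Its CPM was 6.77, 17.6, 6.32 and 11.3 with DMSO and 21.5, 27.8, 8.45 and 37.4 with MS275. Library 3 was again the lowest of each group, and each MS275 library exceeded the DMSO library of its number, by 0.42 to 1.72 on the log2 scale. The log2 change was 1.15 (SE 0.40, adjusted p = 0.543) without the block and 1.11 (SE 0.21, adjusted p = 0.00496) with it, or 2.16-fold. Leaving out any 1 number kept both genes under 0.05 with the block, with adjusted p-values up to 0.00687 for CDH1 and up to 0.0378 for FN1.

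Of the 8 genes that passed the filter on low counts, 2 rose with the block and none (0) fell, where 7.83% of the 14961 genes tested rose and 6.55% fell. Without the block 0 of 8 were called by edgeR or by DESeq2, 2 of 8 had an unadjusted p under 0.05 with either tool, and 0.00668% of all genes tested (1 gene) were called by edgeR. The genes higher with MS275 in 4 of 4 pairs were CDH1, FN1 and ESRP1, against 20.0% of all genes tested. The choice between the fits therefore decides whether CDH1 and FN1 are called.

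ESRP1 did not pass in either fit. Its CPM was 150, 204, 100.2 and 227 with DMSO and 198, 218, 105 and 234 with MS275, so that library 3 was the lowest and library 4 the highest of both groups. The blocked log2 change was 0.14 (SE 0.071, adjusted p = 0.219), or 0.07 without the libraries of number 1. The epithelial pair thus gave a called rise for CDH1 and a small, uncalled difference for ESRP1, and the difference between the 2 genes was not tested.

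None of the 4 transcription factors tested passed either, and ZEB2 did not pass the filter. SNAI1, the factor with the most RNA, had 11.6, 10.2, 11.2 and 6.46 CPM with DMSO and 15.7, 15.6, 10.5 and 12.6 with MS275, which was higher in 3 of 4 pairs and overlapped. Its blocked log2 change was 0.47 (SE 0.19, adjusted p = 0.118), and without the libraries of number 3 it was 0.64 with an adjusted p of 0.0282, and without those of number 4 it was 0.31. TWIST1, a basic helix-loop-helix factor, had 3.65, 2.15, 1.31 and 2.34 CPM with DMSO and 2.08, 6.15, 2.75 and 2.46 with MS275. MS275 library 2 alone stood above the rest, and the blocked log2 change of 0.45 (SE 0.47) had an adjusted p of 0.584. Without the libraries of number 2 it was 0.07, without those of number 3 it was 0.22 and without those of number 1 it was 0.89.

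ZEB1, a zinc finger and homeodomain repressor, had 128, 81, 0 and 111 counts with DMSO and 137, 80, 77 and 180 with MS275. The count of 0 in DMSO library 3 stood against at least 77 counts in every other library, including MS275 library 3, and the blocked log2 change was 1.22 with an SE of 0.86 (adjusted p = 0.384), or 0.36 without the libraries of number 3 and 1.37 to 1.78 without those of another number. ZEB2, its relative, had 39, 15, 0 and 0 counts with DMSO and 14, 0, 0 and 0 with MS275 and did not pass the filter. SNAI2, also called Slug, had 21, 0, 8 and 5 counts with DMSO and 19, 70, 11 and 36 with MS275, with a blocked log2 change of 2.23 (SE 1.52, adjusted p = 0.362), or 1.14 without the libraries of number 2 and 1.75 to 3.29 without those of another number.

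Of the mesenchymal markers other than FN1, VIM had 2.87, 2.07, 4.07 and 1.68 CPM with DMSO and 2.98, 2.34, 3.96 and 4.17 with MS275. The groups overlapped, and the blocked log2 change was 0.35 (SE 0.39, adjusted p = 0.601), or 0.05 without the libraries of number 4. CDH2, which encodes N-cadherin and replaces CDH1 in many cells that undergo the transition, had a count of 0 in all 8 libraries, and 3 counts over a group would have been 0.0173 CPM with DMSO and 0.0190 CPM with MS275. VIM, ZEB1 and ZEB2 overlap the antisense genes VIM-AS1, ZEB1-AS1 and ZEB2-AS1, and since use of strand in counting is not stated, their reads may not be separable.

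**Figure D2:**
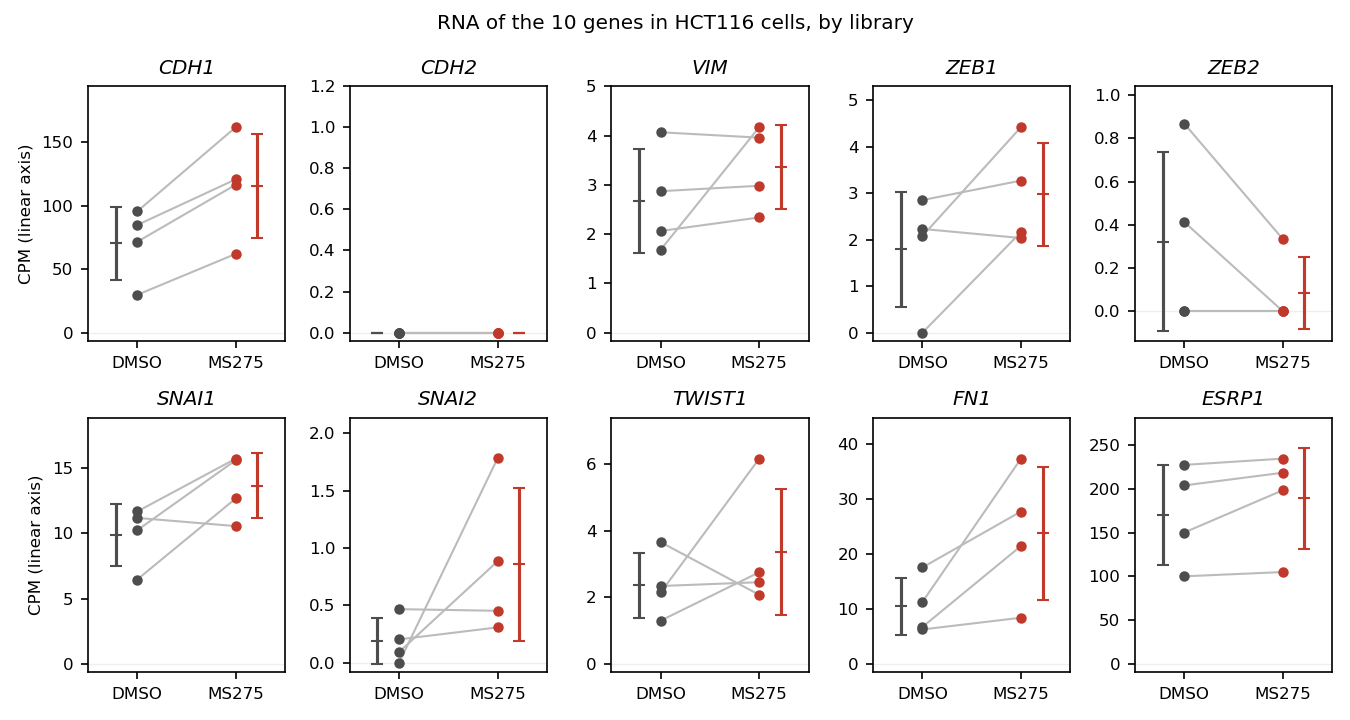
CPM of the 10 genes in HCT116 cells on linear axes, with DMSO libraries in dark grey, MS275 libraries in red, lines joining libraries of the same number, and the mean with its SD (n = 4) beside each group. All 4 lines rise for CDH1, FN1 and ESRP1, and CDH2 is at 0 throughout.

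Further genes of the programme were counted in 4 lists, given beside the 7.83% of all genes that rose and the 6.55% that fell with the block. The lists were chosen with earlier results of these data known and were not matched to all genes by RNA level, so these counts are descriptions. None (0) of the 65 genes tested in these lists was called without the block by edgeR or DESeq2, where 5 had an unadjusted p under 0.05 with edgeR and 6 with DESeq2, and the lists themselves were not tested. Of 25 genes of epithelial adhesion and identity, all tested, 8 rose and 3 fell with the block, with a median log2 change of 0.12 beside 0.0081 over all genes. Those with the largest changes were the desmosomal gene DSP (0.44, SE 0.062), the transcription factor gene ELF3 (0.41, SE 0.069), the keratin gene KRT19 (0.37, SE 0.077) and the plakophilin gene PKP3, which fell by 0.33 on the log2 scale (SE 0.082). Of 25 genes of mesenchymal matrix, adhesion and cytoskeleton, 16 were tested and 5 rose, with a median of 0.16. Among them were COL1A1, a fibrillar collagen chain (0.92, SE 0.20), LOXL2, a lysyl oxidase (0.49, SE 0.098), and NT5E, an ectonucleotidase (0.38, SE 0.085). Fibroblast markers, 6 genes with COL1A1 among them, summed to 5.43 to 8.37 CPM with DMSO and 10.6 to 17.9 CPM with MS275, and smooth muscle markers to 4.21 to 7.51 and 5.51 to 14.5 CPM. COL1A1 alone gave 6.93 ± 1.34 and 13.3 ± 2.94 CPM (SD, n = 4) of the fibroblast sums, and LUM was at 0 in both groups, DCN and PDGFRA with DMSO only.

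Of 15 other transcription factors of the transition, 10 were tested, 4 rose and none (0) fell, with a median of 0.48. They were RUNX2 (log2 change 2.68, SE 0.65, adjusted p = 0.0171), the SNAI1 relative SNAI3 (1.33, SE 0.39, adjusted p = 0.0409), SOX9 (0.52, SE 0.068, adjusted p = 0.000646) and FOXC1 (0.51, SE 0.10, adjusted p = 0.00665). Of 14 corepressors that SNAI or ZEB factors are known to bind, HDAC1 and HDAC2 included, 14 were tested and 2 fell, CTBP1 by 0.41 (SE 0.069) and AJUBA by 0.42 on the log2 scale (SE 0.12), with a list median of −0.03.

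In chromatin, starts of 8 of the 10 genes carried a peak in HCT116 cells, and those of CDH2 and ZEB2 did not. A peak was counted at a start if it lay within 1 kb of the start of a protein-coding transcript of the gene, which held for 65.2% of 17931 genes. In colon the start of 9 genes carried an H3K4me3 peak, Snai2 being the exception, and 4 of these, Cdh1, Esrp1, Vim and Snai1, also an H3K18cr peak, where 66.1% and 52.2% of 19164 genes did. The starts of Cdh2, Zeb1, Zeb2, Twist1 and Fn1 thus had H3K4me3 in colon with no called H3K18cr peak. The share of all genes with this combination is not given here, so it describes these starts only. Since the deposited lists hold called peaks only, absence of a peak is not absence of signal.

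**Figure D3:**
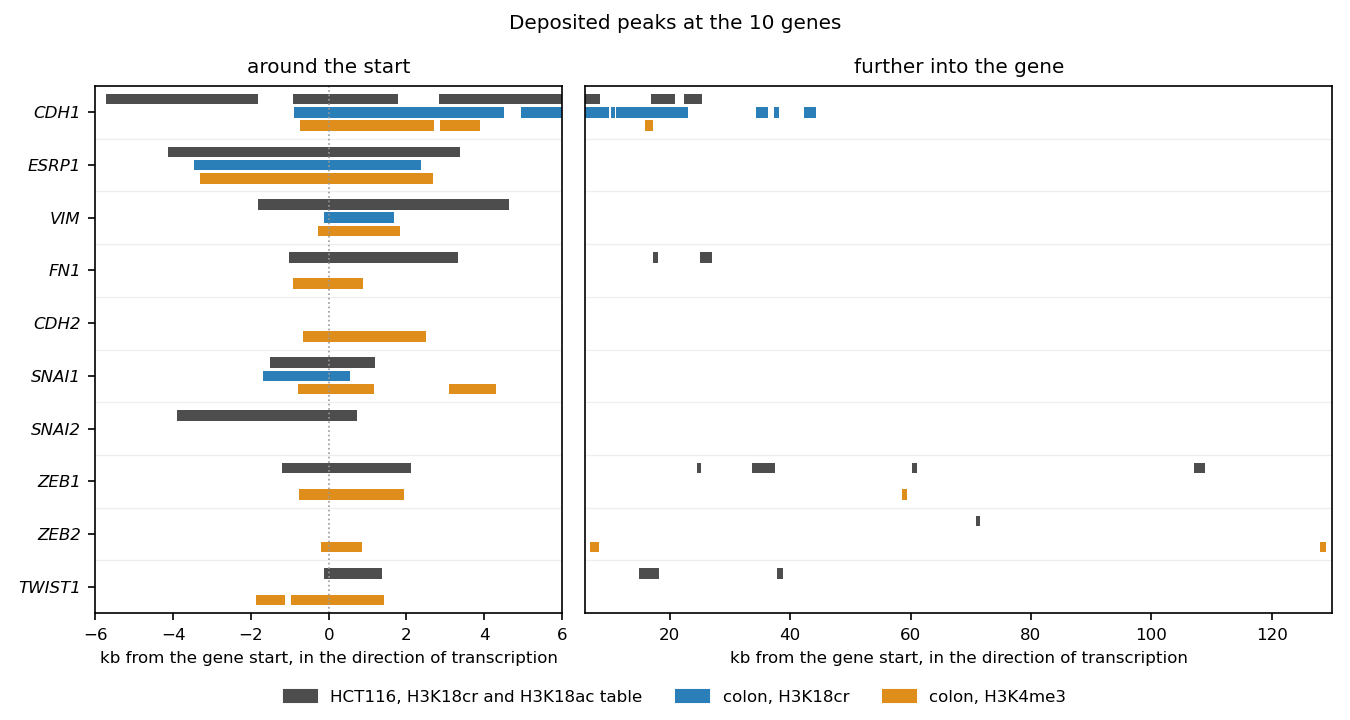
Peaks assigned to the 10 genes by distance from the gene start in kb, with peaks of the HCT116 table in grey, colon H3K18cr peaks in blue and colon H3K4me3 peaks in orange, within 6 kb of the start on the left and further into the gene on the right. Blue bars are found at CDH1, ESRP1, VIM and SNAI1 only, and CDH2 has no grey bar.

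The H3K4me3 values of colon did not separate these groups of starts. The log2 ratio of mean ChIP to input was 2.84 at Cdh1, 2.60 at Esrp1, 2.09 at Vim and 1.94 at Snai1, which also had H3K18cr, and 2.67 at Twist1, 2.47 at Zeb1, 2.34 at Cdh2, 1.95 at Fn1 and 1.90 and 1.18 at the 2 peaks at starts of Zeb2 transcripts, which did not. The median over all H3K4me3 peaks was 1.70. Twist1, with no count of RNA, came next in this ratio of means after Cdh1, the gene with the most RNA of the 10. By library, Twist1 was above Cdh1 in library 1 (2.17 and 2.07) and below Esrp1 in library 2 (2.67 and 2.69). The scaled reads (reads multiplied by 1 factor per library) at Twist1 were 156, 222 and 285 in the 3 ChIP libraries and 34.0 in the input, and those at Cdh1 were 301, 556 and 683 with 71.0 in the input, so that every ChIP library was above its input at both.

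Among the start peaks of colon H3K18cr, those of Cdh1 and Esrp1 had the highest ratios to input. Cdh1 had 8 of the 12 peaks, 1 at the start and 7 inside the gene up to 44249 bp from it, the longest of 12000 bp. Its start peak (GRCm38, chr8:106602451-106607850) had 372 and 642 scaled reads against 123 and 177 in the inputs, a log2 ratio of 1.75 at the 86.2th percentile of all peaks. The 2 adjoining peaks at the start of Esrp1 had ratios of 1.59 and 1.83, Vim (GRCm38, chr2:13573801-13575600) 1.15 with 89.0 and 139 scaled reads against 36.0 and 65.6, and Snai1 1.20 with 129 and 206 against 64.0 and 80.9. The start peaks of Vim and Snai1 lay below the median of 1.32 over all H3K18cr peaks and those of Cdh1 and Esrp1 above it, while the 7 inner peaks of Cdh1 ranged from 1.10 to 1.76, on both sides of it. With 2 libraries these are descriptions, and leaving out 1 ChIP library moved the Vim value between 0.80 and 1.44.

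In HCT116 cells with DMSO, the start peaks of the 8 genes had log2 ratios of H3K18cr to input of 1.06 to 2.35 with a median of 1.62, where the median over all peaks was 1.11, and of H3K18ac of 1.05 to 2.17 with a median of 1.51, against 1.05. Over all peaks of the members, at starts or not, the medians were 1.17 and 1.23. A median over the start peaks of all genes is not given here, so position and gene cannot be told apart. Among the start peaks, ZEB1 (GRCh38, chr10:31317301-31320600) was the highest in H3K18cr over the library mean, at 2.35, with a start that it shares with ZEB1-AS1 on the other strand. By library it had 2.67, 2.46 and 1.78, and in DMSO library 3 SNAI1 (1.96) and VIM (1.82) were above it. SNAI1 (chr20:49981501-49984200) followed in the mean at 2.05, and was the highest in H3K18ac at 2.17, above ZEB1 (2.01), VIM (1.69), ESRP1 (1.58), CDH1 (1.44), SNAI2 (1.11), FN1 (1.06) and TWIST1 (1.05). VIM had 1.76, ESRP1 1.67 and CDH1 (chr16:68736301-68739000) 1.58, so that the genes with most RNA did not have the highest ratios. SNAI2 (1.06), TWIST1 (1.08) and FN1 (chr2:215432851-215437200, 1.19) were the lowest in H3K18cr. The 13 peaks away from starts comprised 4 at CDH1 and at ZEB1 each, 2 at TWIST1 and at FN1 each, and 1 in ZEB2. The deposited interval of TWIST1 runs far beyond its start, and its 2 inner peaks lay 14872 to 18171 bp and 37822 to 38871 bp from the start.

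ChIP-seq values are reads relative to the other reads of a library, with no external standard described in the sources used here, so that they compare the distribution of a mark and not its amount. The paper reports that both marks decreased in relative terms over transcription starts with MS275. By western blot it found more histone crotonylation with MS275, and by ChIP with quantitative PCR more H3K18cr at the promoters it measured. With MS275, scaled reads of H3K18cr fell at the starts of ESRP1, VIM and SNAI1 on the deposited scale, and of these ESRP1 alone stayed below the threshold with TMM scaling and no block. At ESRP1 the scaled reads were 760, 721 and 606 with DMSO and 490, 432 and 466 with MS275, all MS275 libraries below all DMSO libraries. The log2 change was −0.58 (SE 0.15, limma, adjusted p = 0.00403) as deposited and −0.35 with TMM (adjusted p = 0.0403). On the deposited scale the adjusted p stayed at or below 0.0433 when any 1 library was left out. DESeq2 on the reads gave −0.33 with an adjusted p of 0.0605.

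VIM (chr10:17226451-17232900) had 365, 344 and 374 scaled reads of H3K18cr with DMSO and 223, 220 and 317 with MS275, again with no overlap. Its log2 change was −0.53 (SE 0.16, adjusted p = 0.0157) and −0.29 with TMM (adjusted p = 0.173). SNAI1 had 160, 158 and 145 with DMSO and 107, 105 and 105 with MS275, a log2 change of −0.55 (SE 0.17, adjusted p = 0.0168) and of −0.31 with TMM (adjusted p = 0.157). With TMM and a block by number, VIM was called (adjusted p = 0.0191) and SNAI1 was not (adjusted p = 0.0693). Starts of other genes lay at these peaks too, of VIM-AS1 at VIM, of LINC02894 at ESRP1 and of FN1-DT at FN1. Without MS275 library 1 or 2, VIM (adjusted p = 0.128 and 0.130) was no longer called. SNAI1 was lost without DMSO library 1 or 2 or MS275 library 1 or 2 (adjusted p = 0.0636 to 0.0892).

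These calls are to be read against those over all peaks. Of the members' peaks, 3 of the 20 tested were called lower, all at starts, where 23.0% of 40026 peaks were, and 3 of 21 had every MS275 library below every DMSO library, where 29.9% of peaks did. Over all positions, neither share of the members was above that of all peaks, and no such comparison was made for starts. The median change over all peaks was −0.20 as deposited and 0.04 with TMM, and the calls split into 93 higher and 9210 lower as deposited and 712 and 4448 with TMM. As deposited, ESRP1, VIM, SNAI1, ZEB1 and CDH1, at −0.33, lay below that median and SNAI2, TWIST1 and FN1 above it. The changes at ZEB1 (−0.48, SE 0.19, adjusted p = 0.0694), CDH1 (SE 0.18, adjusted p = 0.200), FN1 (−0.09, SE 0.17), TWIST1 (−0.07, SE 0.21) and SNAI2 (0.07, SE 0.17) were not called, and those of FN1 and TWIST1 change sign with TMM. Leaving out 1 library moved TWIST1 between −0.15 and −0.01. The 12 tested peaks away from starts ranged from −0.32 to 0.33, with none called.

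The H3K18cr change at ZEB1 moved in both directions with single libraries. Its scaled reads of H3K18cr were 229, 198 and 124 with DMSO and 133, 118 and 133 with MS275, and DMSO library 3 lay within the MS275 range. Without that library the log2 change was −0.74 with an adjusted p of 0.000551, and 5 of the members' peaks were called lower, while without DMSO library 1 it was −0.29 with an adjusted p of 0.413. With libraries blocked by number it was called too (adjusted p = 0.0219), which made 4 of the members' peaks lower, but not with block and TMM (adjusted p = 0.162). At CDH1 the reads were 169, 130 and 162 with DMSO and 119, 110 and 136 with MS275, which overlap.

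For H3K18ac none (0) of the 21 peaks was called by limma on the deposited values, where 16.3% of 40122 peaks were called lower, 4 had an unadjusted p under 0.05, and TMM, edgeR and DESeq2 called 3, 3 and 1. ESRP1 had 469, 596 and 900 scaled reads with DMSO and 509, 373 and 367 with MS275, with MS275 library 1 above DMSO library 1. The log2 change was −0.62 (SE 0.25, adjusted p = 0.0693), and −0.37 with TMM (adjusted p = 0.0162). Without DMSO library 1 or MS275 library 1 it was called on the deposited scale too (adjusted p = 0.00458 and 0.0367), while without DMSO library 3, the highest, the change was −0.36 (adjusted p = 0.353), and with a block by number the adjusted p was 0.380.

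Of the 8 start peaks, that of FN1 alone had an H3K18ac change above 0 on the deposited scale. Its H3K18ac reads were 121, 118 and 124 with DMSO and 157, 145 and 124 with MS275, each MS275 library above each DMSO library, the lowest by under 1 read. The log2 change was 0.23 (SE 0.25, adjusted p = 0.666) as deposited, 0.47 with TMM (adjusted p = 0.0172) and 0.47 with DESeq2 (adjusted p = 0.0598). FN1 was the only 1 of the 21 peaks with all MS275 libraries higher, where 3.33% of peaks were, and 2 had all lower, SNAI2 and a peak inside CDH1, where 23.1% were. As for H3K18cr, scaling moved the median of all peaks, from −0.19 to 0.06, and the calls from 106 higher and 6534 lower to 1803 and 6627. At the other starts the change was −0.56 at SNAI1 (SE 0.25, adjusted p = 0.121), −0.52 at VIM (SE 0.25, adjusted p = 0.154), −0.43 at CDH1 (SE 0.25, adjusted p = 0.274), −0.40 at SNAI2 (SE 0.25), −0.39 at TWIST1 (SE 0.25) and −0.22 at ZEB1 (SE 0.25), of which ZEB1 turns to 0.03 with TMM. Without DMSO library 1, SNAI1 and VIM were called (adjusted p = 0.0253 and 0.0357). Leaving out 1 library moved ZEB1 between −0.46 and −0.04, SNAI2 between −0.53 and −0.21, TWIST1 between −0.56 and −0.24, CDH1 between −0.64 and −0.28 and FN1 between 0.15 and 0.32, with none of these 5 called.

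**Figure D4:**
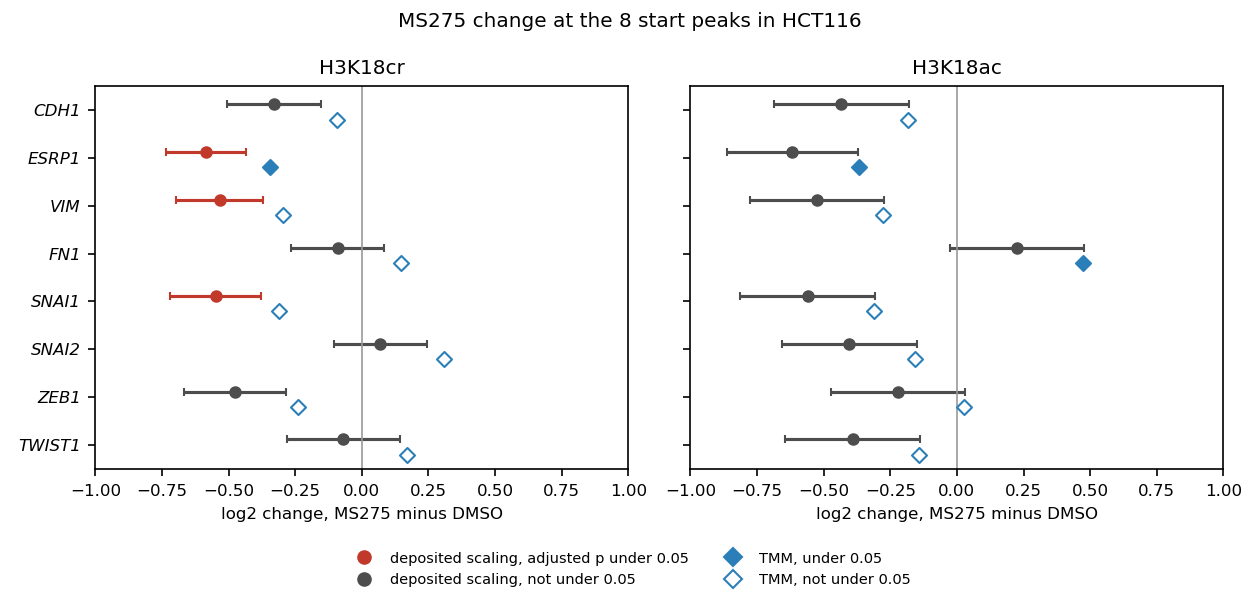
Log2 change of H3K18cr (left) and H3K18ac (right) with MS275 at the start peaks of 8 genes, with circles and SE for the deposited scale (n = 3 per group), diamonds for TMM scaling, and filled red or blue symbols for an adjusted p under 0.05. TMM moves each value upward by about the shift of the median, after which ESRP1 stays called lower in H3K18cr and is newly called lower in H3K18ac, and FN1 is newly called higher in H3K18ac.

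Whether the marks changed unequally was tested as the interaction of mark and treatment. None (0) of the 21 peaks was called, nor was any of the 40266 peaks (0%), of which 739 had an unadjusted p under 0.05 but 0 of the 21. The difference, H3K18cr change minus H3K18ac change, lay between −0.32 (a peak inside ZEB1) and 0.48 (a peak inside CDH1), with the lowest adjusted p at 0.9999 (limma). At the starts it was 0.47 at SNAI2, 0.32 at TWIST1, 0.10 at CDH1, 0.03 at ESRP1, 0.01 at SNAI1, −0.01 at VIM, −0.26 at ZEB1 and −0.32 at FN1. CDH1 RNA rose in the blocked fit with uncalled changes of −0.33 (H3K18cr) and −0.43 (H3K18ac) at its start, which were −0.09 and −0.19 with TMM. Its log2 ratios to input were 1.58 and 1.60 with DMSO and MS275 for H3K18cr, and 1.44 and 1.38 for H3K18ac. ESRP1 RNA was not called while the scaled reads of H3K18cr at its start fell. FN1 RNA rose in the blocked fit with uncalled changes of −0.09 (H3K18cr) and 0.23 (H3K18ac) at its start on the deposited scale. With TMM the H3K18ac change at FN1 was called higher, and the H3K18cr change, at 0.15, was not called. RNA and ChIP come from separate libraries, and no relation across the genes was tested.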

How the data were processed

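RNA-seq tables hold raw read counts per gene, as the authors deposited them. For HCT116 ChIP-seq the deposited values are log2 read counts that the authors scaled by 1 factor per library to the largest one, with 0.9 in place of 0 reads, and the colon ChIP-seq tables hold the same kind of signal as deposited, not logged. Apart from those zeros, 100% of values in every ChIP library were whole reads times the factor, within 0.02 of a read up to 50 reads and 0.04% of the value above. Each table holds 1 list of peaks called by the authors for all its libraries. The paper names Trim Galore, HiSat2, Bowtie2 and SEQMONK, and the submitters' processing notes name Trim Galore 0.4.2, TopHat2 2.0.12 and Bowtie2 2.2.5, with builds GRCm38 and GRCh38. Use of strand in counting is not given in the sources used here.

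RNA was tested with edgeR 4.0.16 (quasi-likelihood, TMM, filterByExpr) and peaks with limma 3.58.1 (trend) on the log2 values, for peaks with at least 10 scaled reads in at least 3 libraries, each over the whole table with Benjamini-Hochberg adjustment and a threshold of 0.05. DESeq2 1.42.0, other scalings, no filter, the replicate block and leaving out each library were alternatives. Log2 ratios of ChIP to input used means of scaled reads plus 1. Exon lengths and starts came from GENCODE 44 and M21. Same-numbered RNA libraries deviated together (correlations 0.226, 0.151, 0.433 and 0.460), so their number was used as a block beside the unblocked fit.

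The 10 genes and the gene lists were chosen with earlier results of these data known. All 10 genes are named, with the HCT116 and colon peaks at their starts. Other peaks are given by counts, and of each list the 4 called genes with the largest change are named, except 1 that is not reported here. Intervals for counts of 0 cover counting error only.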

Additional observations from a re-analysis of the deposited data

Results flagged for a closer look

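Among 18 groups of 4 HCT116 RNA libraries, 2 held a value far from the others by Dixon's gap test (at its 95% critical value), which by chance marks about 5% of groups. TWIST1 with MS275 was marked by library 2, whose gap to the next library was 0.834 of the range of the group, at 242 counts against 87 to 100 in the others. ZEB2 with MS275 was marked by library 1, with 14 counts against 0 in the other 3, a gap of 1, the whole range. With 3 libraries at 0, any other count in library 1 gives the same gap, so the 5% does not apply to this mark. Neither gene was called in any fit.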

How the results depend on the processing

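For RNA, 1 gene was called without the block, 2151 with the replicate block, 140 by DESeq2 and 13 with no filter on counts. Leaving out 1 library gave 0 to 1 genes without the block (0 without DMSO library 1 or 2 or MS275 library 2), and leaving out 1 number gave 968 to 2584 with it (968 without number 1, 994 without 2, 1037 without 4). The ESRP1 RNA change lay between −0.016 (without DMSO library 3) and 0.30. For H3K18cr, 9303 peaks were called, against 5160 with TMM, 5511 by edgeR and 3376 by DESeq2 on whole reads, and 5920 to 12604 without 1 library (6188 without DMSO library 1, 6194 and 5920 without MS275 library 1 and 2). For H3K18ac, 6640 were called, 814 with the block, and 1443 to 9316 without 1 library (3062 and 3773 without DMSO library 2 and 3, 1443 and 1903 without MS275 library 2 and 3). Same-numbered ChIP-seq libraries did not all deviate together. Their correlations were 0.108, 0.0729 and 0.229 in H3K18cr, where different numbers reached 0.0791. In H3K18ac they were −0.207, 0.0464 and −0.134, where different numbers reached 0.251. The study used a paired test on these libraries, and with the block 10654 H3K18cr peaks were called.

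Of the members' peaks, 3 were called lower in H3K18cr, 4 with the block, 2 with block and TMM, 1 with TMM, 1 by edgeR, 0 by DESeq2, and 1 to 5 without 1 library (1 without MS275 library 1 or 2, 5 without DMSO library 3), and 1 was called higher by edgeR and 2 with block and TMM. In H3K18ac, 0 were, but 2 with TMM, 2 by edgeR, 1 by DESeq2, 1 with block and TMM (1 higher with each of TMM, edgeR, and block and TMM), and 0 to 4 without 1 library (4 without DMSO library 1, 1 without MS275 library 1). At starts, H3K18cr of TWIST1 turned to 0.17 with TMM, 0.17 by edgeR, 0.18 by DESeq2 and 0.17 with block and TMM, and of FN1 to 0.15, 0.17, 0.18 and 0.15. Without 1 library, FN1 lay between −0.15 and 0.018 (without MS275 library 3) and SNAI2 between −0.0027 (without DMSO library 3) and 0.20. H3K18ac of ZEB1 turned to 0.027, 0.044, 0.040 and 0.027 under the same 4 settings. The cause was not tested. With these and the named genes, 15 of the recomputed values reversed, 14 fell short of the threshold, 16 newly passed it and 52 moved.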
